A study of Mus musculus with 6 samples.

Results

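The 36 genes described here encode the machinery of autophagy and of mitophagy, its form that removes mitochondria, in lung ILC2s with and without the mechanically gated cation channel Piezo1. They were taken by symbol from the deposited gene table, where all 36 of them are among its 18057 genes, and all 36 passed the filter on low counts that left 14149 genes for testing. Group 2 innate lymphoid cells (ILC2s) are tissue lymphocytes that answer alarmins such as IL-33 with type 2 cytokines. The cells of both groups were isolated from lungs of mice given 3 intranasal injections of 1 µg IL-33 and then spent 24 h in culture, where IL-2 and IL-7 were present at 10 ng/mL each. The control group (3 libraries) is labelled with the genotype Il7rcre and, in the sample titles, WT. The Piezo1_KO group (3 libraries) is labelled Il7rcrePiezo1flx, the same driver with a floxed Piezo1 allele. The driver follows Il7r, a gene that lymphoid progenitors also use, so deletion is not limited to ILC2s. The sources used here give no age, sex or strain of the mice, no allele copy number and no word on pooling. Since the labels do not tie each library to its own animal, the spread behind every p-value may be a technical one.

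Autophagy encloses cytoplasm in a double membrane and delivers it to the lysosome. The ULK kinase complex starts the process, a class III PI3-kinase complex marks the growing membrane with the lipid PI3P, and lipid transporters enlarge it. An enzyme chain resembling ubiquitin transfer then attaches small proteins of the ATG8 family (LC3 and GABARAP) to the membrane, where they bind cargo receptors. Innate lymphoid cells are known to depend on autophagy for their survival, and ILC2s without Atg5 have been described as short of energy and of type 2 cytokines.

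Of the 36 genes, 1 rose in Piezo1_KO (Bnip3l), 0 fell and 35 did not pass an adjusted p of 0.05 (edgeR quasi-likelihood test, Benjamini-Hochberg adjustment over all 14149 genes tested). Over all genes tested, 1.51% passed, of which 142 were higher (1.00%) and 72 lower (0.509%). The groups did not overlap in 8 of the 36 genes (22.2%), beside 20.6% of all genes tested. Of the 8, 5 were higher and 3 lower in Piezo1_KO, where 10.1% of all genes were separate and higher and 10.5% separate and lower. Of the 36 genes, 6 (16.7%) had an unadjusted p under 0.05, beside 13.2% of all genes. These shares lie near those of the whole table and are no result about the 36 genes. The median log2 fold change was 0.07, beside 0.02 for all genes, and 23 of the 36 were positive, beside 53.0% of all genes. Measured against the spread between libraries, which may be a technical one, the precision bounded most of the 36 genes. The 95% interval of the fold change lay within 1.5-fold in either direction for 25 of the 36 genes (47.8% of all genes tested). It lay within 2-fold for 34 (68.3% of all genes tested), leaving out only Wipi1 and Atg4c, both at low levels. The plot of fold changes shows each interval by role.

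**Figure D1:**
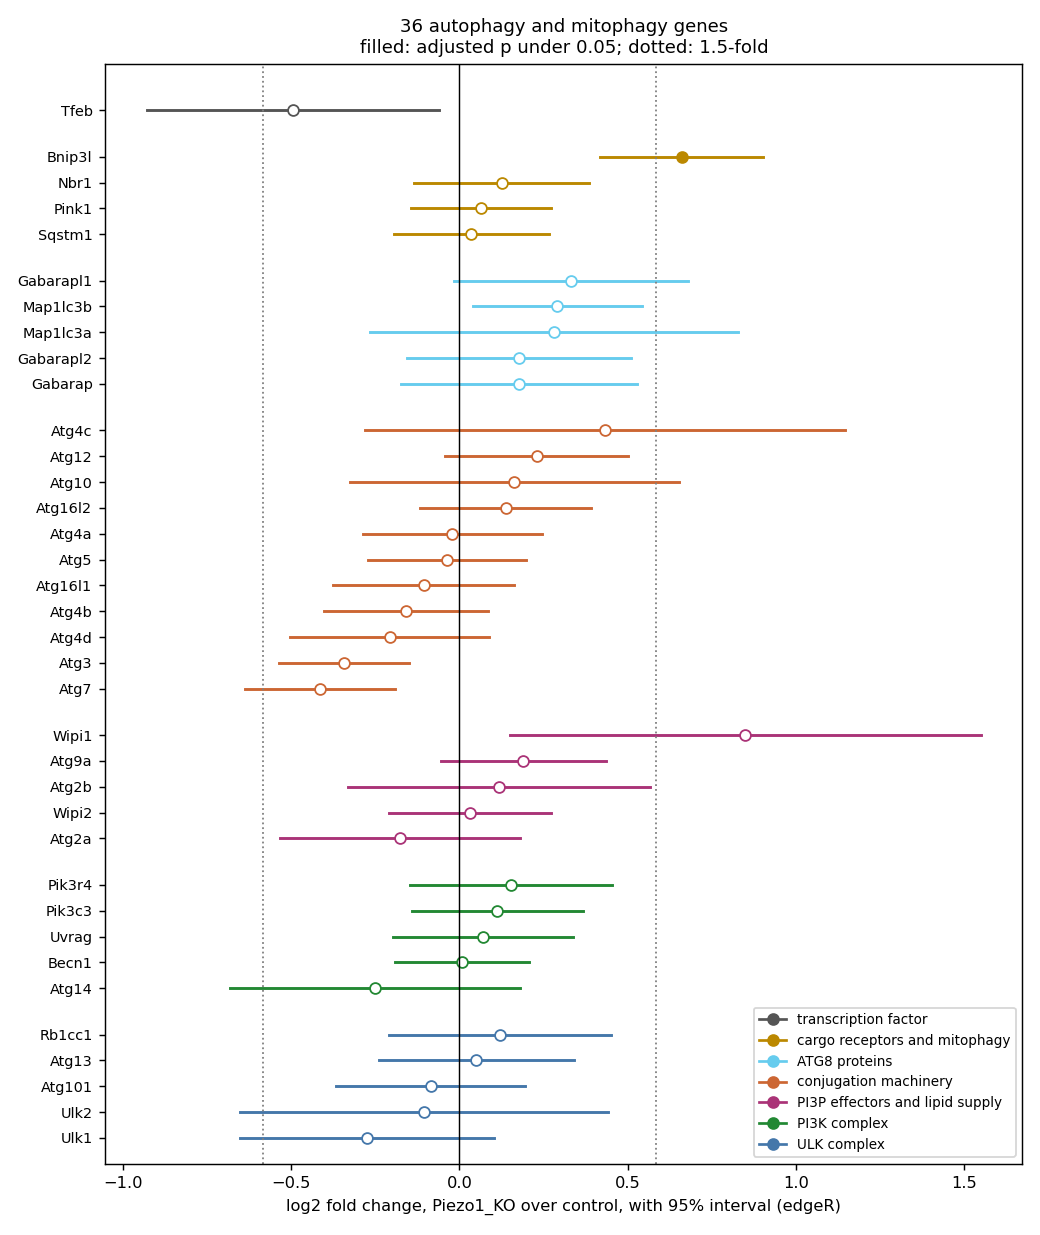
Log2 fold change of Piezo1_KO over control (points) with its 95% interval (lines) for each of the 36 genes, coloured by role, with filled points for an adjusted p under 0.05 and dotted lines at 1.5-fold. Bnip3l is the single filled point, and 25 of the 36 intervals stay between the dotted lines.

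Piezo1 itself was at 247, 279 and 160 CPM (counts scaled to a common library size with TMM factors) in the controls, given here and below in the order of replicates 1, 2 and 3, and at 150, 109 and 122 CPM in the Piezo1_KO libraries. All 3 of these were below the controls, but the log2 fold change, −0.85 ± 0.21 (SE), missed the threshold (edgeR adjusted p = 0.112). It passed in DESeq2 (0.00193), in limma-voom (0.0157) and without control replicate 3 (0.0163). A count over the whole gene also takes in exons outside a floxed part. Piezo1 also shares 24.6% of its exon length with Ctu2 on the opposite strand. Ctu2 was at 47.4, 57.2 and 60.1 CPM in control and 43.5, 39.3 and 38.4 CPM in Piezo1_KO (log2 fold change −0.44 ± 0.12 SE, adjusted p = 0.139, edgeR). The part of Ctu2 reads in the Piezo1 value was not tested. The libraries held 13059046 to 33459904 estimated counts, with control replicate 3 the shallowest. All 13 ILC2 markers looked for were in the table, and their summed level was 11948 to 12837 CPM in control and 13751 to 14708 CPM in Piezo1_KO. Il5 (4038 to 5159 CPM between the group means) and Il2ra (3469 to 4318) made up most of this sum. Il7r (means of 66.8 and 32.8 CPM in control and Piezo1_KO) and Icos (358 and 234) fell (adjusted p = 0.00722 and 0.0168, edgeR). Lower without passing were the means of Gata3 (986 and 736.5 CPM, adjusted p = 0.0612, edgeR), Rora (192.0 and 160.6) and Il1rl1 (904 and 788). The means of Thy1 (7.45 and 15.5 CPM, adjusted p = 0.0603, edgeR), Klrg1 (294 and 366) and Id2 (1116 and 1430) were higher without passing. So were those of Areg (111 and 146), Il13 (163 and 196), Ptprc (697 and 801), Il5 and Il2ra. Summed markers of other cells were low by comparison and some moved with genotype: T cells 26.8 to 34.9 CPM in control and 19.2 to 25.6 CPM in Piezo1_KO, B cells 16.6 to 18.8 and 22.3 to 26.5, epithelial cells 11.97 to 17.8 and 16.1 to 20.9, and macrophages and dendritic cells 4.83 to 11.5 and 4.4 to 7.25. Those of granulocytes and mast cells were at 8.24 to 12.4 and 4.02 to 5.39 CPM, where the mast cell protease gene Cma1 fell, and those of NK cells and ILC1s at 2.70 to 4.68 and 2.05 to 4.84 CPM, where Tbx21 fell (adjusted p = 0.0312 and 0.0170, edgeR). ILC3 markers were at 0.97 to 2.06 and 0.45 to 0.89 CPM, and endothelial and stromal ones at 0.34 CPM or less. The T cell, B cell and epithelial sums came mostly from 1 gene each, namely Cd3g, Cd79b and Epcam. Of the markers listed for these cells, 3 of 7, 2 of 5 and 3 of 6 were in the table. Directions were mixed within lists. In control and Piezo1_KO, means were 12.9 and 16.4 CPM for Epcam and 1.3 and 2.3 for Krt18, but 0.84 and 0.12 for Cdh1. Cd68 was at 2.43 and 3.72, but Csf1r at 1.1 and 0.17 and Lyz2 at 3.12 and 0.69. The part of such cells in the values below was not tested.

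The cargo receptors and mitophagy genes held the called gene. Bnip3l encodes NIX, a receptor in the outer mitochondrial membrane that binds ATG8 proteins and is known for clearing mitochondria from maturing red cells. It lies on chromosome 14, 66985239 to 67008877 in mm10 (minus strand). Its level was 83.4, 75.7 and 88.9 CPM in control and 120.0, 142.6 and 129.0 CPM in Piezo1_KO, from 1186 to 4128 estimated counts a library. Every Piezo1_KO library lay above every control library. The mean rose from 82.7 ± 6.65 to 130.5 ± 11.4 CPM (SD, n = 3), a 1.58-fold rise (log2 fold change 0.66 ± 0.11 SE, 95% interval 0.42 to 0.90, adjusted p = 0.0259, edgeR). The size was steady, at 0.58 to 0.71 over 12 alternative fits, while the adjusted p ran from 1.57e-05 (DESeq2) to 0.162, and it passed in 7 of them. The share of all genes that passed differed widely between these fits: 1.51% with RLE size factors, 1.14% with no filter on low counts, 2.03% with a stricter one, 3.10% in limma-voom, 4.19% in DESeq2 and 0.368% with replicate number as a block. It was 0.234, 2.04 and 1.63% without control replicate 1, 2 and 3, and 0.241, 0.227 and 0.366% without Piezo1_KO replicate 1, 2 and 3. Leaving out control replicate 1 ended the call (0.135), as did leaving out Piezo1_KO replicate 1 (0.0985), 2 (0.162) or 3 (0.122). In bulk RNA, more cells carrying a transcript and more transcript per cell cannot be told apart.

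Values that move with Bnip3l stand beside it. An annotated pseudogene, Bnip3l-ps, was listed at 3.77, 1.23 and 5.25 CPM in control and 6.002, 7.22 and 7.00 CPM in Piezo1_KO, so reads may be divided between them, and the sum of both was 76.9 to 94.1 CPM in control and 126.0 to 149.8 CPM in Piezo1_KO. Of 6 red cell markers looked for, 3 were in the table and 2 rose. Their summed level was 3.70 to 5.25 CPM in control and 26.7 to 31.3 CPM in Piezo1_KO, nearly all of it from the alpha globin gene Hba-a1, while the beta globin gene Hbb-bt was at 0 to 0.56 CPM in every library. The red cell genes Alas2 and Hbb-bs are not among the columns analysed here. The part of red cell RNA in the Bnip3l value was not tested.

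The other 3 receptors and mitophagy genes did not pass. Sqstm1, which encodes the ubiquitin-binding receptor p62, was at 318, 388 and 346 CPM in control and 365, 374 and 339 CPM in Piezo1_KO, and the groups overlapped throughout (log2 fold change 0.04, 95% interval −0.20 to 0.27). Nbr1, a receptor of similar build, was at 81.9, 78.9 and 63.7 CPM in control and 85.7, 78.8 and 80.6 CPM in Piezo1_KO, with a log2 fold change of 0.13 ± 0.11 (SE). Pink1, a kinase that accumulates on damaged mitochondria, spanned 108.0 to 127.3 CPM over the 6 libraries and had a 95% interval of −0.15 to 0.27 on the log2 scale.

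Further genes of selective autophagy came from a list chosen for their role, but with earlier results of these data known. Of 22 tested, 2 rose, 0 fell and 20 did not pass, beside 1.51% called over all genes. The share that passed is therefore not independent of those earlier results. Bnip3, the close relative of Bnip3l and also a mitochondrial receptor, was at 159, 193 and 159 CPM in control and 265, 346 and 305 CPM in Piezo1_KO, with every Piezo1_KO library above the controls. Its log2 fold change was 0.84 ± 0.13 (SE), or 1.79-fold (adjusted p = 0.0225, edgeR), and it passed in 8 of 12 alternative fits, with adjusted p from 2.41e-07 to 0.1425. The call was lost when control replicate 1 was left out (0.1425), and likewise for Piezo1_KO replicate 1 (0.0526), 2 (0.128) or 3 (0.102). Optn, which encodes optineurin, a receptor of ubiquitin-marked mitochondria and bacteria, was at 2.37, 2.24 and 2.32 CPM in control and 5.79, 4.84 and 5.72 CPM in Piezo1_KO. The controls lay close together and all 3 Piezo1_KO libraries were above them, a log2 fold change of 1.24 ± 0.22 (SE, adjusted p = 0.0371, edgeR), from as few as 31 estimated counts in a library. Optn passed in 6 of 12 alternative fits (adjusted p from 0.000875 to 0.195), and it did not pass without control replicate 1 (0.157) or 3 (0.0557) or without Piezo1_KO replicate 1 (0.174), 2 (0.1698) or 3 (0.181). The median of the 22 genes was −0.01, so the rises of Bnip3 and Optn were not shared by the list as a whole.

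**Figure D2:**
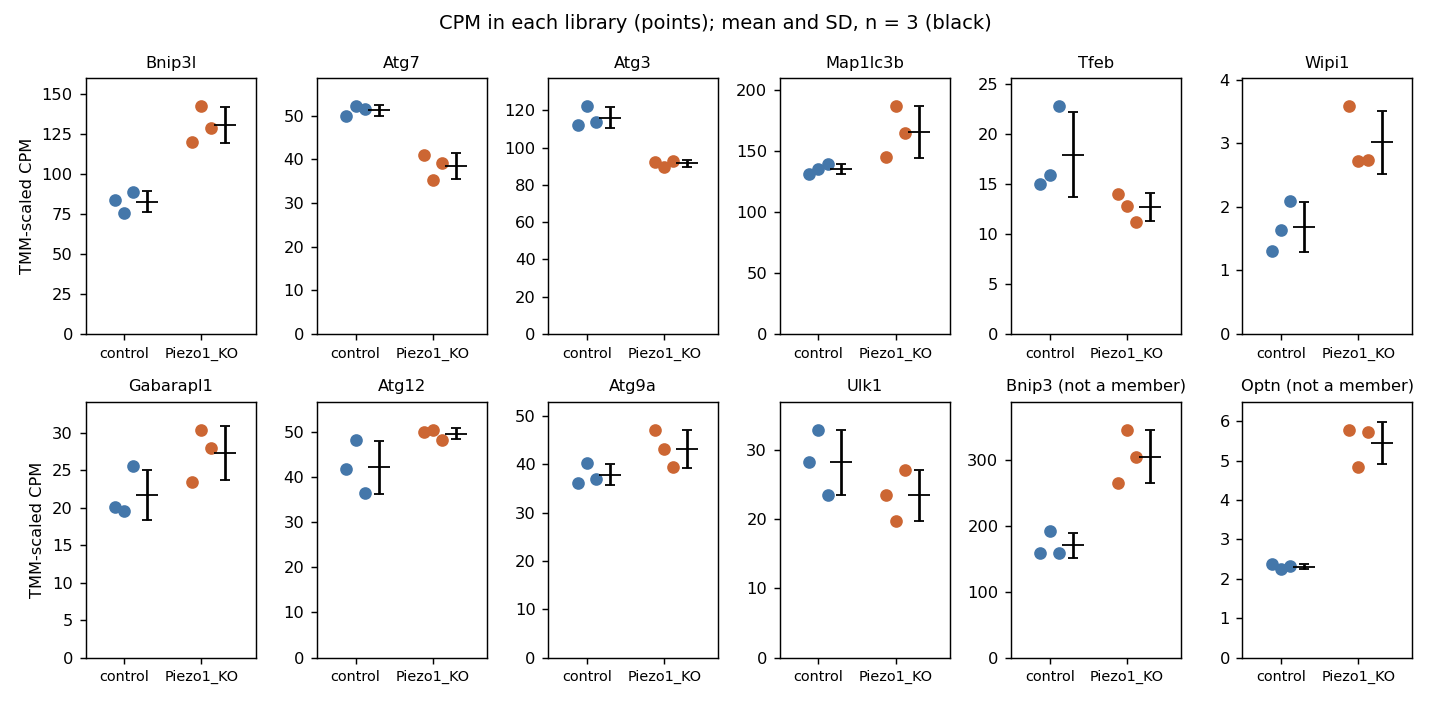
TMM-scaled CPM in each of the 6 libraries (coloured points) with the mean and SD of 3 libraries (black) for the 10 members with the smallest p and, from outside the 36, Bnip3 and Optn. Each axis starts at 0. Bnip3l, Bnip3 and Optn passed the test, with all Piezo1_KO points above all control points, and the other 9 genes did not pass.

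The conjugation machinery comprises the enzymes and scaffold that couple ATG8 proteins to membrane lipid. Of its 11 genes 0 rose, 0 fell and 11 did not pass, the median log2 fold change was −0.04, and the groups did not overlap in 4 (36.4%, beside 20.6% of all genes tested), with 2 on the higher side and 2 on the lower. The lowest p-values belonged to the enzymes that act in sequence on every ATG8 protein. Atg7, the activating (E1-like) enzyme, was at 49.9, 52.3 and 51.6 CPM in control and 41.0, 35.2 and 39.2 CPM in Piezo1_KO, from 689 to 1751 estimated counts a library. All 3 Piezo1_KO libraries were below the controls, with a log2 fold change of −0.41 ± 0.10 (SE, 95% interval −0.64 to −0.19, adjusted p = 0.102, edgeR). Atg3, the E2-like enzyme that receives ATG8 proteins from Atg7 and passes them to lipid, was at 112, 122 and 114 CPM in control and 92.4, 89.4 and 92.7 CPM in Piezo1_KO. It too was lower in all 3 Piezo1_KO libraries, with a log2 fold change of −0.34 ± 0.08 (SE, 95% interval −0.54 to −0.15, adjusted p = 0.114, edgeR). The DESeq2 test, in which 4.19% of all genes passed, called Atg7 (adjusted p = 0.0171) and Atg3 (0.00964), and the other 11 alternatives called neither. Their adjusted p reached 0.467 and 0.497.

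**Figure D3:**
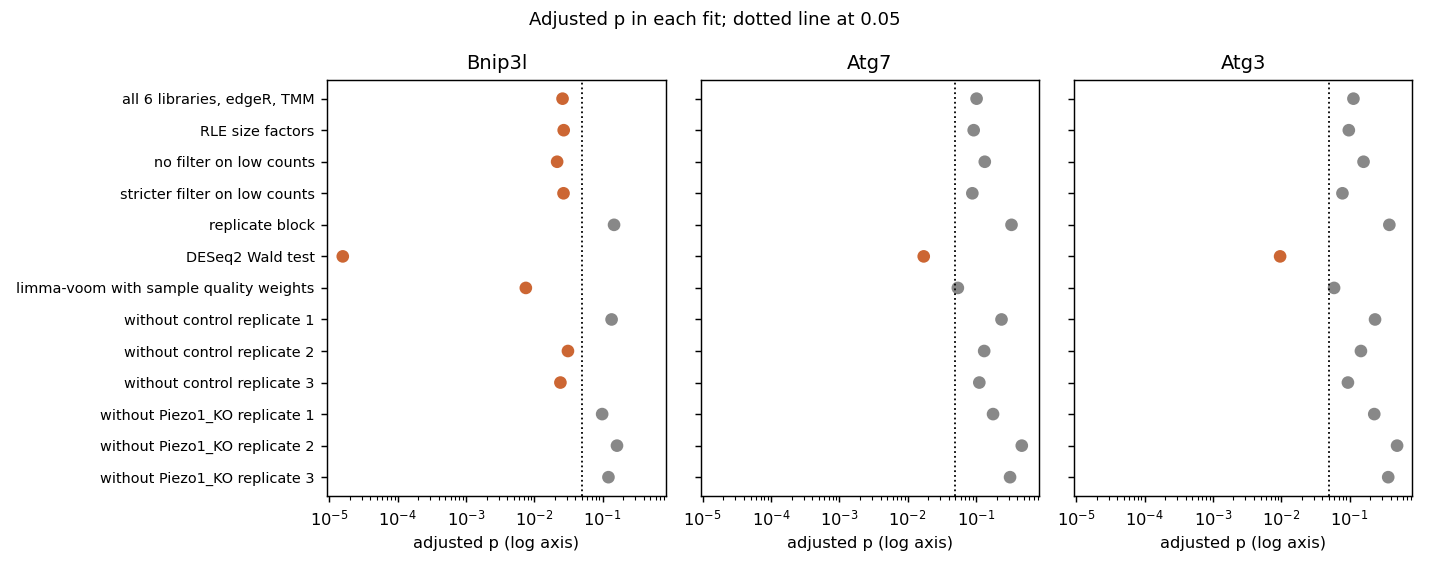
Adjusted p on a log axis for Bnip3l, Atg7 and Atg3 with all 6 libraries and in 12 alternative fits, coloured where under 0.05 (dotted line). Bnip3l is under 0.05 in 7 alternatives and with all libraries, Atg7 and Atg3 in DESeq2 alone.

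None of the genes of the partner branch passed either. Atg12 is a ubiquitin-like protein that is joined to Atg5 by the E2-like enzyme Atg10, and the joined proteins bind the scaffold Atg16l1 to set where ATG8 is attached. Atg12 was at 41.8, 48.2 and 36.4 CPM in control and 49.9, 50.5 and 48.2 CPM in Piezo1_KO, so that the highest control and the lowest Piezo1_KO library nearly met (log2 fold change 0.23 ± 0.12 SE, adjusted p = 0.470, edgeR). Atg5 spanned 56.2 to 67.2 CPM, with a 95% interval of −0.27 to 0.20 on the log2 scale. Atg10, a low transcript at 4.51 to 6.41 CPM, had a wider one of −0.33 to 0.65. Atg16l1 and its relative Atg16l2 had log2 fold changes of −0.11 and 0.14, with overlapping groups.

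Atg4 proteases trim new ATG8 proteins before attachment and release them again. None of the 4 Atg4 genes passed. Atg4a, Atg4b and Atg4d spanned 31.7 to 39.5, 48.1 to 62.8 and 41.2 to 58.6 CPM, and their log2 fold changes were −0.02, −0.16 and −0.21, with overlapping groups. Atg4c was far lower, at 3.27, 3.05 and 1.65 CPM in control and 4.14, 3.32 and 3.42 CPM in Piezo1_KO. Its groups did not overlap, but the log2 fold change of 0.43 ± 0.31 (SE) came from as few as 22 estimated counts in a library and did not pass (adjusted p = 0.616, edgeR). Atg4d shares 19.3% of its exon length with Kri1 on the opposite strand, and Atg4a has an annotated pseudogene, Atg4a-ps, listed at 0.36 to 1.96 CPM.

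In the ATG8 family, 0 of 5 genes passed. All 5 log2 fold changes were positive (0.18 to 0.33), beside 53.0% of all genes. Map1lc3b, which encodes LC3B, the usual marker of autophagosomes, was at 131, 135 and 140 CPM in control and 145, 187 and 165 CPM in Piezo1_KO. The groups did not overlap, with Piezo1_KO replicate 1 only slightly above control replicate 3, and the log2 fold change was 0.29 ± 0.11 (SE, adjusted p = 0.299, edgeR). Map1lc3b lies on chromosome 8 at 121590361 to 121598760 (mm10), the chromosome that also holds Piezo1 (122481698 to 122551329) and Gabarapl2 (111940703 to 111953612). Gabarapl1 was at 20.0, 19.6 and 25.6 CPM in control and 23.4, 30.4 and 28.0 CPM in Piezo1_KO, with overlapping groups (0.33 ± 0.15 SE, adjusted p = 0.404, edgeR). Gabarap was at 136, 112 and 170 CPM in control and 143, 166 and 162 CPM in Piezo1_KO, with both the lowest and the highest library among the controls. Gabarap and Gabarapl2 were both at a log2 fold change of 0.18 ± 0.15 (SE), and in both of them control replicate 2 was the lowest library. Map1lc3a, which encodes LC3A, was at 5.38, 4.90 and 8.32 CPM in control and 7.95, 7.60 and 6.88 CPM in Piezo1_KO, and its highest library was a control. The sizes for Gabarap and Map1lc3a rested on single controls. Without control replicate 2 the log2 fold change was 0.02 for Gabarap and 0.12 for Map1lc3a, and without control replicate 3 it was 0.34 and 0.54. Map1lc3b was at 0.19 without Piezo1_KO replicate 2.

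Levels of different genes were compared per kb of exon, on the union of a gene's annotated exons. Within the ATG8 family the order in control was Gabarap (75.6 ± 15.8 CPM per kb), Gabarapl2 (50.01 ± 6.82), Map1lc3b (18.0 ± 0.59), Gabarapl1 (10.8 ± 1.65) and Map1lc3a (5.25 ± 1.57; SD, n = 3), and it was the same in Piezo1_KO. Gabarap made up 44.8 to 49.3% of the family's level in control libraries and 45.6 to 48.0% in Piezo1_KO libraries. Map1lc3b made up 9.93 to 13.3% and 11.5 to 12.6%. Gabarapl2 made up 30.3 to 32.3% and 28.8 to 32.2%, and Map1lc3a 2.92 to 3.76% and 3.04 to 4.16%. Gabarapl1 was the one member whose share did not overlap, at 6.38 to 7.17% in control and 7.18 to 7.63% in Piezo1_KO, although the ranges nearly met. These shares were not tested. With the longest transcript as length the order of the family was the same.

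Across the 36 genes, Sqstm1 was the most abundant per kb (104.4 ± 10.46 CPM per kb in control and 107.1 ± 5.45 in Piezo1_KO) and Wipi1 the least (0.38 ± 0.09 and 0.68 ± 0.11; SD, n = 3). Pink1 (43.9 CPM per kb in control) exceeded Bnip3l (21.4) and Nbr1 (10.9) among the cargo receptors and mitophagy genes. In Piezo1_KO, Bnip3l was at 33.8 ± 2.95 CPM per kb, still under Pink1 at 45.8 ± 1.57. Among the conjugation genes Atg3 led at 36.8 CPM per kb in control and Atg4c was last at 0.79. In the kinase complexes Atg101 (24.8) and Becn1 (27.2) led, and Rb1cc1 (3.26) and Atg14 (1.98) were last. Among the PI3P effectors and lipid transporters Wipi2 (7.32 ± 0.68), Atg2a (6.93 ± 1.37) and Atg9a (6.57 ± 0.38) overlapped in range, but with lengths from the longest transcript Wipi2 (14.9 ± 1.39) lay above Atg9a (8.97 ± 0.52) and Atg2a (8.37 ± 1.66), with no overlap among the control libraries. Lengths taken from the longest transcript moved 11 genes by at least 1 place within their role, and Ulk1 then came last in its complex in place of Rb1cc1.

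**Figure D4:**
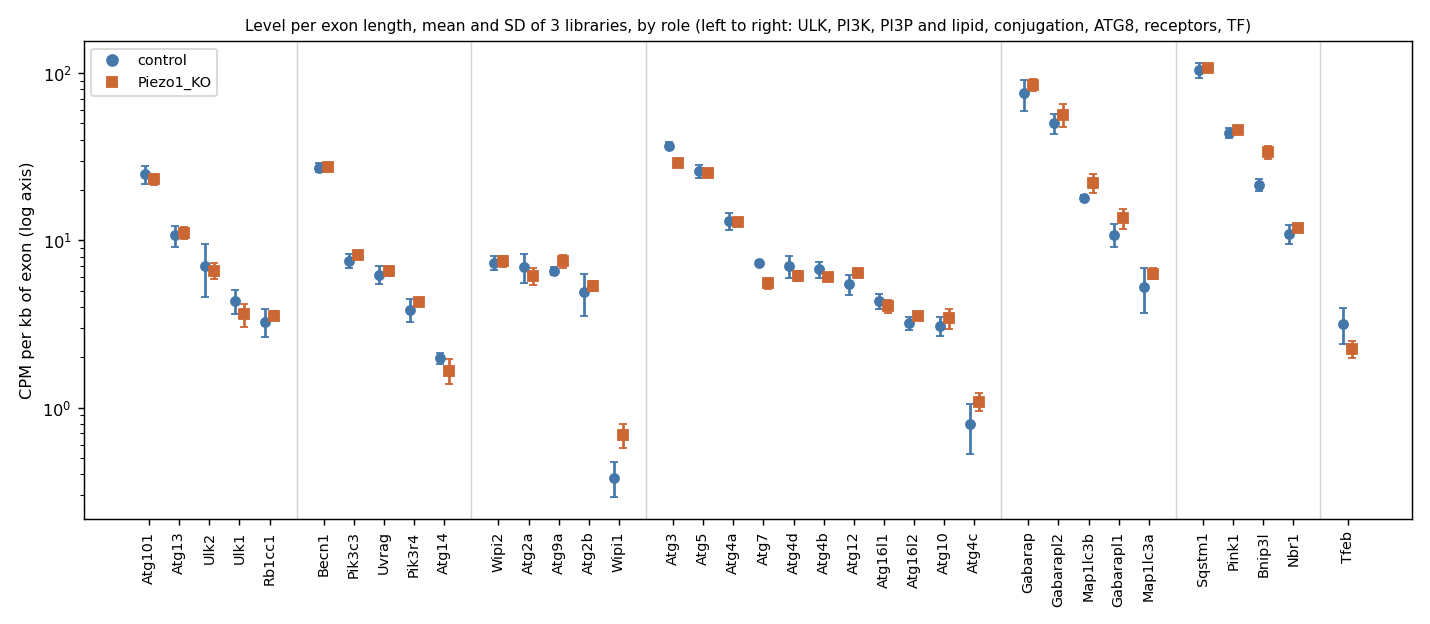
CPM per kb of exon on a log axis for the 36 genes, grouped by role and ordered by the control mean, as mean and SD of 3 control (circles) and 3 Piezo1_KO (squares) libraries. Sqstm1 and Gabarap are at the top and Wipi1 and Atg4c at the bottom, and the symbols of the 2 groups stand clearly apart for Bnip3l, Atg3, Atg7 and Wipi1.

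The ULK complex begins autophagy under the control of the nutrient kinases mTORC1 and AMPK. Of its 5 genes 0 passed and the groups overlapped in all 5. Ulk1, the kinase itself, was at 28.2, 32.97 and 23.5 CPM in control and 23.5, 19.7 and 27.1 CPM in Piezo1_KO (log2 fold change −0.28 ± 0.16 SE, adjusted p = 0.539, edgeR). Its paralog Ulk2 ranged more widely among controls, at 45.8, 54.4 and 26.01 CPM, so its 95% interval ran from −0.65 to 0.44 on the log2 scale. Rb1cc1, the scaffold FIP200, was at 55.8, 49.6 and 38.2 CPM in control and 52.6, 48.7 and 55.3 CPM in Piezo1_KO, and control replicate 3 was again the lowest. The regulatory subunits Atg13 (40.4 to 53.7 CPM) and Atg101 had log2 fold changes of 0.05 and −0.09, with intervals inside 1.5-fold. Atg101 was at 34.6, 39.5 and 44.7 CPM in control and 37.1, 40.1 and 34.6 CPM in Piezo1_KO.

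Of the 5 genes of the PI3-kinase complex 0 passed, and the groups overlapped in all 5. Becn1, which encodes the core subunit Beclin 1, was at 186, 206 and 184 CPM in control and 190, 197 and 192 CPM in Piezo1_KO, a log2 fold change of 0.01 with a 95% interval of −0.19 to 0.21. It shares 43.9% of its exon length with Cntd1 on the opposite strand, which was at 0.27 to 0.89 CPM. The lipid kinase gene Pik3c3 spanned 30.1 to 38.7 CPM and its regulatory subunit Pik3r4 30.3 to 42.4 CPM, with log2 fold changes of 0.11 and 0.15. The complex exists in forms that contain either Atg14, at the forming autophagosome, or Uvrag, on later vesicles. Atg14 was at 8.45, 7.98 and 9.22 CPM in control and 8.41, 7.12 and 5.98 CPM in Piezo1_KO (log2 fold change −0.25 ± 0.19 SE, adjusted p = 0.635, edgeR). Uvrag was at 49.3 to 63.5 CPM, with a log2 fold change of 0.07.

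Genes that read PI3P or feed lipid to the growing membrane also stayed under the threshold, with 0 of 5 called. Wipi1, a PI3P-binding protein, had the largest fold change of the 36, yet from low counts (26 to 85 a library). It was at 1.31, 1.64 and 2.10 CPM in control and 3.59, 2.73 and 2.73 CPM in Piezo1_KO. All 3 Piezo1_KO libraries were higher, but the log2 fold change of 0.85 ± 0.30 (SE) had a 95% interval of 0.15 to 1.55 and did not pass (adjusted p = 0.274, edgeR, and 0.134 to 0.643 in 12 alternatives). Its relative Wipi2, which recruits Atg16l1 to the membrane, was at 77.1, 84.5 and 70.1 CPM in control and 85.7, 74.5 and 77.0 CPM in Piezo1_KO (0.03 ± 0.10 SE). Atg9a, the lipid scramblase of the seed vesicles, was at 36.2, 40.3 and 37.0 CPM in control and 47.2, 43.1 and 39.3 CPM in Piezo1_KO, with overlapping groups (0.19 ± 0.11 SE, adjusted p = 0.511, edgeR). The lipid transfer proteins Atg2a and Atg2b had log2 fold changes of −0.18 and 0.12, and Atg2b was at 44.9 CPM in control replicate 3 against 66.4 to 79.6 CPM in the other 5 libraries. Atg9a shares 31.8% of its exon length with Gm29253 on the same strand, which was at 0 to 0.86 CPM.

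Tfeb encodes a transcription factor that enters the nucleus when mTORC1 is inactive and switches on lysosomal and autophagy genes. It was at 15.04, 15.95 and 22.9 CPM in control and 13.99, 12.9 and 11.2 CPM in Piezo1_KO. The groups did not overlap, but control replicate 3 stood above the other controls, and the log2 fold change of −0.50 ± 0.19 (SE) did not pass (adjusted p = 0.306, edgeR). Without control replicate 3 it was −0.29. Among 27 tested regulators from a list chosen for their role (TFEB relatives, FOXO factors, AMPK and mTORC1 subunits), 0 passed, and the median log2 fold change was −0.04. The regulators with the smallest p were Trp53inp2, a cofactor that carries LC3 out of the nucleus, at 11.3, 12.4 and 12.97 CPM in control and 16.0, 16.8 and 15.5 CPM in Piezo1_KO (0.40 ± 0.13 SE, adjusted p = 0.223, edgeR), and the TFEB relative Tfe3, at 31.7, 35.8 and 33.7 CPM in control and 27.9, 26.7 and 28.7 CPM in Piezo1_KO (−0.28 ± 0.10 SE, adjusted p = 0.276, edgeR). In both genes the groups did not overlap. Of 24 further core genes of membrane growth and fusion with the lysosome, 0 passed and the median was 0.04. The lowest p-values were those of Tecpr1, a tether to the lysosome, and the lipid scramblase gene Vmp1. Tecpr1 was at 131.6, 155.9 and 112.2 CPM in control and 116.0, 109.4 and 98.1 CPM in Piezo1_KO, with overlapping groups (−0.31 ± 0.13 SE, adjusted p = 0.378, edgeR). Vmp1 was at 217.4, 224.3 and 218.3 CPM in control and 242.4, 248.0 and 251.5 CPM in Piezo1_KO, without overlap (0.17 ± 0.08 SE, adjusted p = 0.418, edgeR).

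TFEB and its relatives bind the letters CACGTG, as do other factors of the same kind, so the 250 bases before the RefSeq start were read for this motif, which is the same on both strands. A window was found for 29 of the 36 genes. It held the motif in 3 of them (10.3%), namely Atg3, Atg5 and Atg7, beside 10.0% of tested genes with a window, and this is no result about the 36 genes. The shorter string ACGTG, searched on both strands and contained in every CACGTG, was in 12 of the 29 windows (41.4%), beside 25.8% of tested genes with a window, a difference that was not tested. The Atg7 window belongs to a start 27999 bases inside the GENCODE gene and is not shown. The windows of the conjugation genes Atg3 and Atg5, and of Bnip3 from outside the 36, are printed with the motif in capitals (RefSeq, GRCm38.p6, 5′ to 3′ on the gene's strand). That of Atg3 is chr16:45158579-45158828, plus strand, with 2 matches, the nearer 65 bases before the start. That of Atg5 is chr10:44268089-44268338, plus strand, with 1 match 8 bases before it, and that of Bnip3 is chr7:138909507-138909756, minus strand, with 1 match 102 bases before it. Bnip3l was among the 7 genes without a window, so it was not read for the motif. Bnip3 was picked from the genes that rose, and Optn, which also rose, was not looked at singly. The Bnip3 match is therefore no result about the genes that rose. A match is a string of letters and does not show binding.
Atg3: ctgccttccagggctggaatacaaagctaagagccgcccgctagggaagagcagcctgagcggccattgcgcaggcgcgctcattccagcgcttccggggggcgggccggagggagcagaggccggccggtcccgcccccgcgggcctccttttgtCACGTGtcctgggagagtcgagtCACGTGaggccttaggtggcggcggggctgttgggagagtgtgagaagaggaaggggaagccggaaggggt
Atg5: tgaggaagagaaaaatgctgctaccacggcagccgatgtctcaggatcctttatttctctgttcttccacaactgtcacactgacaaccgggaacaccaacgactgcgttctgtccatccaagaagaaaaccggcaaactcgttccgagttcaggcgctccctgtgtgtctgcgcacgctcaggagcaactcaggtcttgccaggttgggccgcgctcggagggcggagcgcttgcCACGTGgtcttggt
Bnip3: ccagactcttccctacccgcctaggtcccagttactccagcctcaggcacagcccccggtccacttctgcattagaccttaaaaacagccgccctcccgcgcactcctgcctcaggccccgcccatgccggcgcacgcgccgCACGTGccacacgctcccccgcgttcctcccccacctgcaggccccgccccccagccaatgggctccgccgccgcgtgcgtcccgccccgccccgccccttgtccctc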

How the data were processed

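RNA from lung ILC2s (6 libraries, 10 ng input RNA each) was made into cDNA and sequenced with standard Illumina protocols, per the labels. The authors deposited estimated counts for each gene, not scaled between libraries, on mm10 according to the submitters' processing notes. The sources used here name no aligner, counting tool, annotation or strandedness, and reads of overlapping genes may not have been told apart. Libraries were matched to samples by the sample description, and groups and replicate numbers came from the titles.

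Estimated counts were rounded. Genes were kept by filterByExpr (14149 of 18057), TMM factors were taken, and edgeR 4.0.16 (R 4.3.3) ran its quasi-likelihood test, two-sided and without covariates. P-values were adjusted by Benjamini-Hochberg over the 14149 genes, and 0.05 was the threshold. The common biological coefficient of variation was 0.201. Standard errors are the absolute log2 fold change over the square root of F, and 95% intervals use the test's degrees of freedom. The fit was tested on simulated data. Replicates of a group differed by more than sampling noise (chi-square per gene of 10.9 or more for each pair). Exon lengths and positions came from GENCODE M21 (GRCm38, which is mm10). Upstream windows came from RefSeq.

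The 36 genes and the lists (75 other pathway genes, 74 of them in the table, and markers) were chosen with earlier results of these data known. Values by library are given for the members that passed, the 10 with the smallest p, those without overlap, the most and least abundant per kb of each role and Tfeb, and for other pathway genes that passed or, in lists where none did, the 2 with the smallest p. Ulk2, Atg2b and the genes named beside a result (overlapping genes and pseudogenes) were added after their values were seen. Alternatives were RLE size factors, no filter and a stricter filter on low counts (1 CPM or more in each library of either group), a block for replicate number, each library left out, DESeq2 1.42.0, limma-voom with sample quality weights (limma 3.58.1) and the longest transcript as length.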

Additional observations from a re-analysis of the deposited data

How the results depend on the processing

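The median log2 fold change of the 36 genes was 0.066 with all libraries, and in all 12 alternative fits it shifted by less than the SD between libraries (0.047). It was 0.020 without Piezo1_KO replicate 1 and 0.024 without control replicate 3, so single libraries held most of its size. Without Piezo1_KO replicate 2 it was 0.092. Bnip3l, Bnip3 and Optn were positive in all 12 fits. Counts past the threshold also moved. Over all genes, the 214 called became 593 in DESeq2, 439 in limma-voom and 52 with the replicate block, and lay between 33 and 297 without single libraries. Of the 36 genes, the 1 called became 3 in DESeq2 and 0 with the replicate block, and lay between 0 and 1 without single libraries. The 0 with the block stand beside 52 genes called by edgeR over the whole table. Of the other pathway genes, the 2 called became 1 with the replicate block and lay between 0 and 2 without single libraries. Same-numbered libraries did not deviate together (correlations −0.023, −0.183 and −0.008 for replicates 1, 2 and 3). Pairs with unlike numbers ran from −0.182 to 0.209. Deviations were taken within groups of 3 libraries, so this check cannot tell whether same-numbered libraries share more than a number. With the block Bnip3l had an adjusted p of 0.147 and Optn of 0.195. With the longest transcript as length, 11 genes changed rank within their role, where the union of exons is the reference. Fits without 1 library have fewer samples. Wipi1, Atg4c and Optn rest on as few as 26, 22 and 31 estimated counts in a library, which limits what can be told of them. Intervals cover the spread between 3 libraries a group.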

Other observations

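Control replicate 3 was the library with the lowest value in 13 of the 36 genes (36.1%, beside 27.8% of all genes tested). It had the highest in 7 (19.4%, beside 22.5%), and the genes concerned differed in length. The median exon length was 7711 bp where it was lowest (among them Ulk2, Rb1cc1, Atg2b and Pik3r4) and 2352 bp where it was highest (among them Gabarap, Map1lc3a, Atg101 and Tfeb). Control replicate 2 was the reverse, lowest in 8 genes (22.2%, beside 25.5% of all genes tested) with a median exon length of 2169 bp. It was highest in 11 (30.6%, beside 26.7%) with 6968 bp. The same held over all genes tested: the medians were 5779 bp where control replicate 3 was lowest and 2406 bp where it was highest, and 1658 bp and 4870 bp for control replicate 2. Such differences were not limited to these libraries. Piezo1_KO replicate 2 had medians of 5084 and 2764 bp, control replicate 1 of 3421 and 5337 bp and Piezo1_KO replicate 1 of 3554 and 5384 bp. Those of Piezo1_KO replicate 3 were closer, at 3883 and 4061 bp.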
